A study of Mus musculus with 20 samples.

Results

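The pore-forming and accessory subunit genes of voltage-gated calcium channels, voltage-gated sodium channels and HCN channels were described in the cerebellum of a knock-in mouse of spinocerebellar ataxia type 3 (SCA3). They were chosen by symbol alone, as every protein-coding gene of the count table named Cacna, Cacnb or Cacng with a digit, Scn with a number and the letter a or b, or Hcn with a digit. No expression value entered this choice. It gave 43 of the 29200 Ensembl gene IDs of the table, of which 10 encode alpha1 subunits and 4 encode alpha2delta subunits of calcium channels. A further 4 encode beta subunits and 8 encode members of the gamma family. The sodium channels had 9 alpha subunit genes and 4 beta subunit genes, and the HCN family had 4. In all, 33 of the 43 averaged 50 counts or more per library and were tested among 12153 genes, and the other 10 were not measured.

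RNA of the whole cerebellum came from 20 mice of the strain C57BL6/N, 5 in each of 4 groups. The study's methods describe them as males. WT/WT mice carried unmodified alleles, and 304Q/304Q mice carried a repeat labelled with 304 units in both copies of the endogenous Atxn3 gene. Both genotypes were taken at 2 months and at 12 months. The labels name ataxin-2 for the wild-type alleles, whereas the study describes Atxn3 throughout. The expansion was placed with zinc-finger nucleases, is an interrupted repeat under the gene's own promoter and is present in every cell, and all 304Q/304Q mice stem from 1 line. Each library stands for 1 mouse, so p-values set a difference against the spread between mice within groups, estimated over all 20 libraries together. In RNA of a whole tissue, fewer cells of a type and less RNA per cell cannot be told apart.

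Voltage-gated calcium channels open on depolarization and let calcium enter, which drives transmitter release, dendritic spikes and calcium signals to the nucleus. The alpha1 subunit forms the pore and sets the current type, while beta and alpha2delta subunits bring the channel to the membrane and adjust its gating. Sodium channel alpha subunits carry the rising phase of the action potential, and their beta subunits shape gating and act as adhesion molecules. HCN channels pass a mixed cation current on hyperpolarization and set resting potential and rhythm. In the cerebellum, Purkinje cells are known for large P/Q-type and T-type calcium currents and for a resurgent sodium current, and mutations of Cacna1a cause ataxia in mice and people.

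Total counts lay between 11385380 and 27636687 per library, with group medians from 13226186 to 14234560. The granule cell and Purkinje cell marker lists were measured in every library, and 10 brainstem markers summed to between 0.15 and 2.01 CPM, the read count scaled to the size of the library. Choroid plexus markers summed to over 400 CPM in 6 libraries, namely 304Q/304Q mouse 3 at 2 months, WT/WT mice 1, 2 and 5 at 12 months and 304Q/304Q mice 1 and 3 at 12 months. Skeletal muscle markers summed to 278 CPM in 304Q/304Q mouse 5 at 12 months and to between 2.88 and 17.3 CPM elsewhere. Libraries also differed in how gene levels followed the GC content of the exons, with slopes between -0.184 and 0.199 log2 units per 10% GC. At 12 months, WT/WT mice 2 to 5 had slopes of 0.131, 0.199, 0.126 and 0.142, while WT/WT mouse 1 had -0.0741 and the 304Q/304Q mice ran from -0.0698 to 0.0393. Values with the GC trend removed are given beside the genes named here where this changed a call or moved a called value by over 1.5 times.

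The promoters of these genes were taken from RefSeq (GRCm38.p6) as 250 bases before to 50 bases after the start, and 25 of the 33 tested genes had an entry. Their median GC content was 62.7%, against 52.7% over all 32851 windows, and the median number of CpG was 20, against 7. The letters GGGCGG, a core of the Sp1 box searched on both strands, were found in 12 of 25 windows (48.0%) and in 35.7% of all windows. CCAAT was found in 7 (28%, all windows 37.4%) and TATAAA in 1 (4.0%, all windows 13.6%). TGACGTCA, CACGTG and the REST half-sites TTCAGCACC and GGACAGCGC were in none of the 25, and in 1.79%, 7.15%, 0.371% and 0.405% of all windows. All were searched on both strands, and none of them contains another. The windows below belong to pairs picked, among several possible, for moving in opposite directions at 12 months. They are Cacna2d1 (chr5:15934441-15934740, plus strand) with Cacna2d2 (chr9:107399630-107399929, plus strand), both of the alpha2delta subfamily. The others are the alpha gene Scn2a (chr2:65620519-65620818, plus strand) and the beta gene Scn4b (chr9:45138374-45138673, plus strand). Capitals mark GGGCGG on either strand, some copies overlapping by a base.
Cacna2d1: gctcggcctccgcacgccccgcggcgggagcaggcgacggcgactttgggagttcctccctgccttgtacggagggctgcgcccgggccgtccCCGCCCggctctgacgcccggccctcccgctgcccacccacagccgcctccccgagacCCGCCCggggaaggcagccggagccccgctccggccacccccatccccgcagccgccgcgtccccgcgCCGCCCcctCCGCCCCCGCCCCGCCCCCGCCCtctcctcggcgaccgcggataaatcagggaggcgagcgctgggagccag
Cacna2d2: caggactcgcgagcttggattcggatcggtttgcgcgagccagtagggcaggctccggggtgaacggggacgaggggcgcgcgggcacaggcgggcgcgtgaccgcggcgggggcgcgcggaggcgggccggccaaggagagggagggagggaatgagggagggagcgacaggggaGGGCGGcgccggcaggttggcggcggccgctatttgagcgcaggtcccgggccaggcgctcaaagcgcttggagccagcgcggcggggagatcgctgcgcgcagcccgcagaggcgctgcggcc
Scn2a: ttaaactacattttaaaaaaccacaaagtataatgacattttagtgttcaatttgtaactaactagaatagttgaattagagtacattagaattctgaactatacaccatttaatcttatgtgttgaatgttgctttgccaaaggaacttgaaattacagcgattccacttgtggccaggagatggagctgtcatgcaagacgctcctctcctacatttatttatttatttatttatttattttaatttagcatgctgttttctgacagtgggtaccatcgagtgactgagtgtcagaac
Scn4b: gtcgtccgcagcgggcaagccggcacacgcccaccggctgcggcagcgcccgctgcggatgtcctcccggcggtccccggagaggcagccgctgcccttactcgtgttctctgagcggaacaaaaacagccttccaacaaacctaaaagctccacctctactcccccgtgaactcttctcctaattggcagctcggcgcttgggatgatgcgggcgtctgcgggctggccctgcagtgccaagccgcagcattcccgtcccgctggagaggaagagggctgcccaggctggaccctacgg
The window of Cacna2d1, the gene that rose most at 12 months, was 80.0% GC with 42 CpG and 7 copies of the motif. That of Cacna2d2 was 75.7% GC with 43 CpG and 1 copy. The window of Scn2a was 33% GC with 3 CpG and held no copy, and the window of Scn4b, at 66.3% GC with 26 CpG, held none either. Other genes past the adjusted p at 12 months had windows too. Among those higher, Cacna1b held 3 copies and Cacna1e 0. Among those lower, Cacna2d3 held 6 (81.3% GC, 41 CpG), Cacnb2 1 and Cacng3 0. A relation of these letters to the direction of change was not tested. The RefSeq start lay 268 bases from the 5′ end of the GENCODE gene for Cacna2d2, 229 for Scn4b, 2 for Scn2a and 0 for Cacna2d1. Among the 25 windows it lay furthest for Cacna1e, at 158581 bases. It also lay far off for Cacng8 (3359), Cacnb3 (1488), Cacng3 (1252) and Cacnb2 (1218).

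At 12 months, calcium and sodium channel genes moved in both directions between the genotypes. Of the 33 tested, 11 (33.3%) passed an adjusted p of 0.05 (edgeR quasi-likelihood, Benjamini-Hochberg over all tested genes), while 12.5% of all 12153 genes did. Such shares describe a gene family chosen with earlier results of these data known and are no independent test. Higher in 304Q/304Q mice were Cacna1b, Cacna1e, Cacna2d1 and Scn2a (4 of 33, 12.1%, against 5.23% of all genes). Lower were Cacna1a, Cacna1g, Cacna2d2, Cacna2d3, Cacnb2, Cacng3 and Scn4b (7 of 33, 21.2%, against 7.3% of all genes). Differentially expressed genes (DEGs), which in addition changed by 0.5 log2 units or more, were Cacna1e and Cacna2d1, both higher (6.06% of the 33, against 1.26% of all genes in that direction and 3.09% in both). In 6 of the 33 (18.2%) the 5 mice of one genotype all lay above the 5 of the other, which was the case for 8.94% of all genes (3 higher, against 3.51%, and 3 lower, against 5.43%). The median log2 fold change of the 33 was -0.0235, beside -0.00386 over all genes.

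At 2 months, none of the 33 passed the adjusted p in edgeR's test, which 0.0494% of all genes did. An unadjusted p under 0.05 was met by 3, namely Scn4b, Cacna2d3 and Cacng4 (9.09%, against 5.55% of all genes). DESeq2 found none, and with surrogate variables 1, Scn4b (adjusted p = 0.0486). The log2 fold changes at 2 months ran from -0.39 for Scn9a to 0.16 for Cacng4, with a median of -0.0456 beside -0.00165 over all genes.

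**Figure D1:**
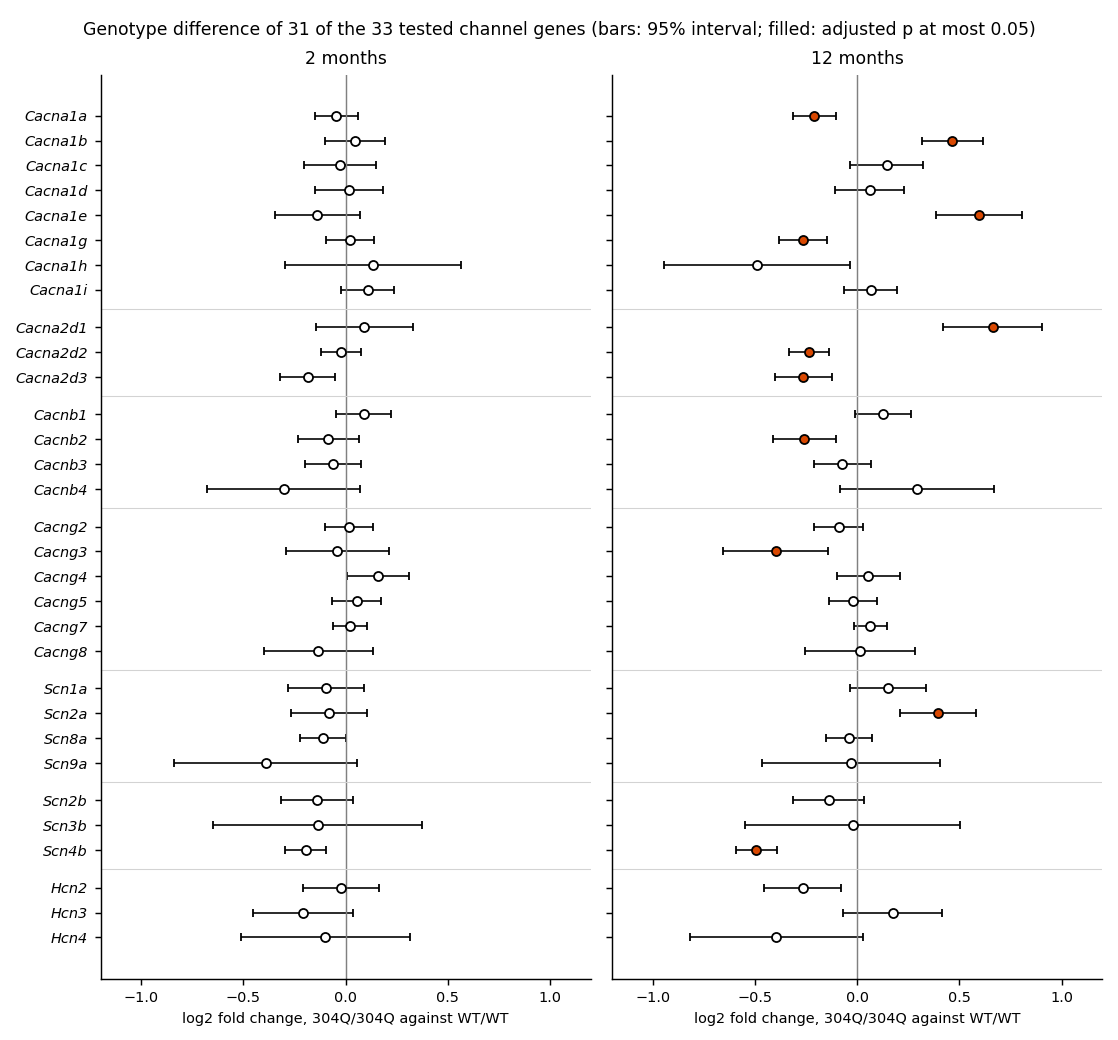
Log2 fold change of 304Q/304Q against WT/WT mice (x axis, log2 units) for 31 of the 33 tested channel genes (y axis, grouped by subfamily), at 2 months on the left and at 12 months on the right, with bars for the 95% interval and filled points for an adjusted p of at most 0.05. No point is filled at 2 months, and 11 are filled at 12 months, 4 to the right of 0 and 7 to the left.

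Among the alpha1 subunits, the N-type gene Cacna1b and the R-type gene Cacna1e, which carry presynaptic and somatodendritic calcium currents, were higher in 304Q/304Q mice at 12 months. Cacna1e had CPM of 142, 118, 113, 112 and 105 in WT/WT mice 1 to 5 at 12 months, and of 163, 178, 170.1, 187 and 193 in the 304Q/304Q mice. At 2 months it had 318, 247, 252, 192 and 203 in WT/WT mice and 222, 207, 202, 229.7 and 241 in 304Q/304Q mice. The genotypes overlapped at 2 months. At 12 months every 304Q/304Q mouse lay above every WT/WT mouse, all WT/WT mice lay below all mice of 2 months, and the 304Q/304Q mice lay below the younger mice of their own genotype. The log2 fold change at 12 months was 0.60 ± 0.10 (adjusted p = 0.000274), or 1.51-fold.

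Cacna1b had CPM of 69, 72.3, 61.1, 64.8 and 76.6 in WT/WT mice and 96.1, 90.6, 80.7, 104 and 103 in 304Q/304Q mice at 12 months. At 2 months the values were 81.3, 74.2, 80.8, 79.8 and 69.6 for WT/WT and 82.3, 82.7, 77.6, 74 and 81.2 for 304Q/304Q mice. Again the 12-month groups did not overlap, and the highest WT/WT mouse lay just under the lowest 304Q/304Q mouse. In log2 units the difference was 0.47 ± 0.07 (adjusted p = 8.36e-05) at 12 months and 0.05 (95% interval -0.10 to 0.19) at 2 months. With the GC trend removed the 12-month difference was 0.53 with an adjusted p of 1.55e-05, which made Cacna1b a DEG.

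The genes of the P/Q-type pore, Cacna1a, and of a T-type pore, Cacna1g, both known for strong expression in Purkinje cells, were lower. Cacna1a stood at 558, 656, 588, 624 and 632 CPM in WT/WT and at 530.4, 519, 472, 533 and 588 CPM in 304Q/304Q mice at 12 months, and at 622, 605, 611, 650.0 and 631 for WT/WT and 628, 621, 588, 603 and 580.4 CPM for 304Q/304Q mice at 2 months. The 12-month genotypes overlapped, since 304Q/304Q mouse 5 lay above WT/WT mouse 1 and close to WT/WT mouse 3. The log2 fold change of Cacna1a was -0.21 ± 0.05 (adjusted p = 0.00759), and with the GC trend removed it was -0.12 with an adjusted p of 0.119. Cacna1g stood at 469, 549, 536, 497 and 528 CPM in WT/WT mice and 423, 402, 398, 448 and 471 CPM in 304Q/304Q mice at 12 months, after 446, 429, 457, 497 and 502 for WT/WT and 464, 511, 459, 449.8 and 481 CPM for 304Q/304Q mice at 2 months. Only the highest 304Q/304Q mouse reached above the lowest WT/WT mouse, and the log2 fold change was -0.27 ± 0.06 (adjusted p = 0.00283). With the GC trend removed it was -0.18 with an adjusted p of 0.0175.

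The other alpha1 genes did not pass the test at 12 months. The L-type genes Cacna1c and Cacna1d had log2 fold changes of 0.14 (95% interval -0.03 to 0.32) and 0.06 (95% interval -0.11 to 0.23), and the T-type gene Cacna1i one of 0.06 (95% interval -0.06 to 0.19). Cacna1h, a T-type gene at 4.19 ± 1.37 CPM (SD, n = 5) in WT/WT mice and 2.98 ± 0.516 CPM in 304Q/304Q mice, had -0.49 (95% interval -0.95 to -0.03). Over the alternatives tried, Cacna1c passed with surrogate variables in edgeR (0.26, adjusted p = 0.0349) and in DESeq2 (0.26, adjusted p = 0.0216).

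The alpha2delta genes, whose products sit outside the membrane and raise the number of channels at synapses, passed in all 3 tested, and not in 1 direction. Cacna2d1, a target of gabapentin, had CPM of 50, 40.3, 35, 41.1 and 33.5 in WT/WT mice and 60.6, 66.2, 62.6, 71.3 and 55.9 in 304Q/304Q mice at 12 months. At 2 months it had 67.4, 60.8, 71.8, 51.9 and 49.7 for WT/WT and 56.9, 60.4, 54.4, 70.6 and 79 for 304Q/304Q mice. The 12-month groups did not overlap, and the 304Q/304Q mice of 12 months lay within the range of 2 months while WT/WT mice 2 to 5 lay below it. This was a log2 fold change of 0.66 ± 0.12 (adjusted p = 0.00043), or 1.58-fold, and 0.53 with an adjusted p of 2.11e-05 with the GC trend removed.

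Cacna2d2, whose loss causes ataxia in ducky mice and which Purkinje cells express strongly, was lower. Its CPM were 314, 353, 336, 315 and 326 in WT/WT mice and 274, 281, 272, 278 and 291 in 304Q/304Q mice at 12 months, against 331, 294, 322, 319 and 305 for WT/WT and 312, 324, 302, 325 and 287 for 304Q/304Q mice at 2 months. The 12-month groups did not overlap. The log2 fold change was -0.24 ± 0.05 (adjusted p = 0.00165), and with the GC trend removed -0.16 with an adjusted p of 0.0291.

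Cacna2d3, which is known from synapses and the auditory pathway, was lower. At 2 months it had CPM of 52.2, 53.1, 48.5, 56.6 and 57.7 in WT/WT mice and 48.9, 47, 45.1, 46.7 and 48 in 304Q/304Q mice. At 12 months it had 41.8, 41.3, 49.5, 42.1 and 48.8 in WT/WT mice and 38.1, 34.4, 36.3, 38.7 and 38.4 in 304Q/304Q mice, with no overlap. This was a log2 fold change of -0.26 ± 0.07 (adjusted p = 0.0102) at 12 months and -0.19 (95% interval -0.32 to -0.05) at 2 months. It was not past the threshold with surrogate variables in edgeR or DESeq2. As shares of the summed level per exon length (RPKM) of the 4 alpha2delta genes, Cacna2d1 took 6.45% ± 1.2 (SD, n = 5) in WT/WT mice and 11.4% ± 1.1 in 304Q/304Q mice at 12 months, and Cacna2d2 took 82.6% ± 1.1 and 78.3% ± 1.0.

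**Figure D2:**
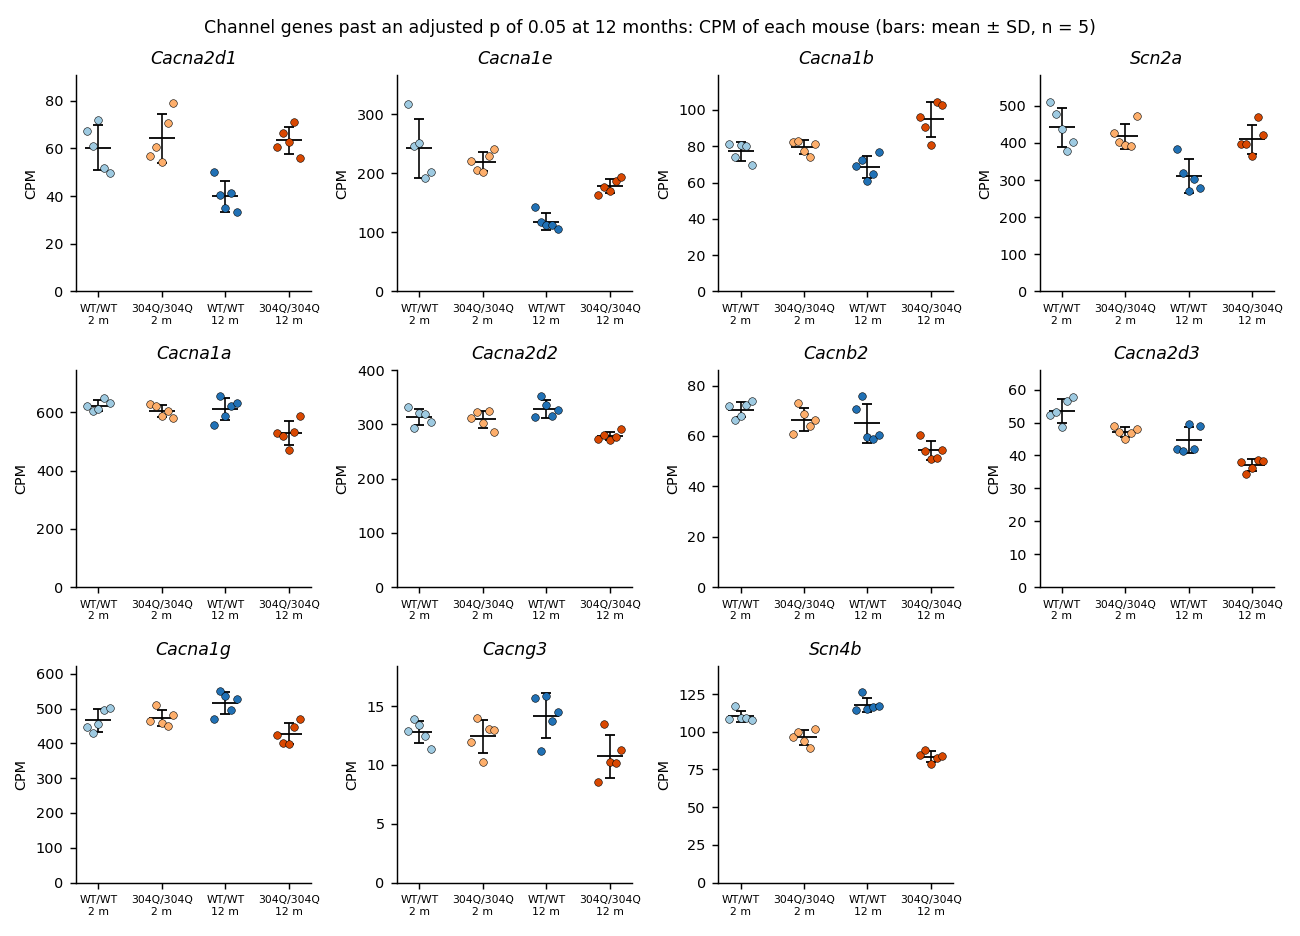
CPM of each mouse (y axis, starting at 0) in the 4 groups (x axis) for the 11 channel genes past an adjusted p of 0.05 between the genotypes at 12 months, ordered from the largest rise to the largest fall, with bars for mean ± SD of 5 mice. In Cacna2d1, Cacna1e and Cacna1b every 304Q/304Q mouse of 12 months lies above every WT/WT mouse of that age, and in Cacna2d2, Cacna2d3 and Scn4b every one lies below.

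The beta subunits bind the alpha1 subunit inside the cell. Cacnb2 was lower at 12 months, at 70.6, 75.7, 59.4, 58.6 and 60.5 CPM in WT/WT mice and 60.3, 54.1, 50.8, 51.4 and 54.4 CPM in 304Q/304Q mice, after 71.8, 66.4, 68, 72.1 and 73.8 for WT/WT and 60.6, 73.1, 68.7, 63.9 and 66.3 CPM for 304Q/304Q mice at 2 months. The highest 304Q/304Q mouse lay above 2 of the WT/WT mice. In log2 units the difference was -0.26 ± 0.07 (adjusted p = 0.0211), and the call was lost without WT/WT mouse 2, without 304Q/304Q mouse 3 and without 304Q/304Q mouse 4 of 12 months, with adjusted p-values of 0.0732, 0.0568 and 0.0615. It was also lost with surrogate variables in either tool and with only the groups compared, while with the GC trend removed the difference was -0.43 with an adjusted p of 0.00607.

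Cacnb4, the most expressed beta gene per exon length and the gene mutated in lethargic mice, had a wide spread. Its CPM were 341, 204, 179, 176 and 191 in WT/WT mice and 232, 274, 263, 334 and 232 in 304Q/304Q mice at 12 months, and 429, 359, 329, 237 and 228 for WT/WT and 226, 209.9, 223, 274 and 350.4 for 304Q/304Q mice at 2 months. WT/WT mouse 1 of 12 months was the highest of all 10 mice of that age, and the other 4 WT/WT mice lay below every 304Q/304Q mouse. The log2 fold change was 0.29 ± 0.18 (adjusted p = 0.315), and 0.51 with an adjusted p of 0.0291 without WT/WT mouse 1. Cacnb1 and Cacnb3 had log2 fold changes of 0.12 (95% interval -0.01 to 0.26) and -0.07 (95% interval -0.21 to 0.06). Cacnb1 passed with the GC trend removed (0.22, adjusted p = 0.0305).

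The gamma family is better known for its members that bring AMPA-type glutamate receptors to the synapse than for calcium channel function. Cacng7, the most expressed of them per exon length, had CPM of 595, 593, 644, 598 and 625 in WT/WT mice and 641, 629.8, 645, 682 and 597 in 304Q/304Q mice at 12 months, and 651, 627, 607, 646 and 613 for WT/WT and 650.1, 649, 625, 634 and 631 for 304Q/304Q mice at 2 months. The ranges of the 4 groups overlapped, and the log2 fold change at 12 months was 0.06 (95% interval -0.02 to 0.15). With the GC trend removed it was 0.15 and passed (adjusted p = 0.0295). Cacng2, stargazin, had -0.09 (95% interval -0.21 to 0.03), and did not pass under 11 of 13 other alternatives or with any library left out. It passed in the rest, and over all alternatives it ran from -0.25 to -0.05 (adjusted p between 1.55e-05 and 0.696). Its age difference in 304Q/304Q mice (adjusted p between 0.000131 and 0.385) and its interaction (0.00086 to 0.815) also passed in some. Cacng4, Cacng5 and Cacng8 had values of 0.05, -0.02 and 0.01 with adjusted p-values of at least 0.676. Cacng3 was the only member past the adjusted p in the fit reported, with few counts, at 15.7, 11.2, 15.9, 13.8 and 14.4 CPM in WT/WT mice and 8.55, 13.5, 10.2, 10.2 and 11.2 CPM in 304Q/304Q mice of 12 months and 12.9, 13.9, 13.4, 12.4 and 11.4 for WT/WT and 11.9, 14, 10.3, 13.1 and 13 CPM for 304Q/304Q mice at 2 months. Its groups overlapped, its log2 fold change was -0.40 ± 0.12 (adjusted p = 0.0337), and the call was lost without WT/WT mouse 1, 3 or 5 and without 304Q/304Q mouse 1, 3 or 4 of 12 months, with adjusted p-values between 0.0603 and 0.0967. It was lost under 6 of 13 other alternatives too, among them the removal of the GC trend (-0.33, adjusted p = 0.091) and of the length trend (-0.36, adjusted p = 0.0596).

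Of the sodium channel alpha genes, 4 of 9 were tested, and Scn2a, a main sodium channel of granule cell axons and excitatory neurons, was higher in 304Q/304Q mice at 12 months. Its CPM were 384, 319.9, 269, 304 and 279.9 in WT/WT mice and 398, 396, 365, 469 and 421 in 304Q/304Q mice at 12 months. At 2 months they were 509, 478, 438, 379.5 and 403 for WT/WT and 426, 403, 394, 390.4 and 474 for 304Q/304Q mice. WT/WT mouse 1 lay within the 304Q/304Q range at 12 months and the other 4 lay below it. In log2 units the difference was 0.40 ± 0.09 (adjusted p = 0.00435), or 1.32-fold, and 0.32 with an adjusted p of 0.00163 with the GC trend removed.

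Scn8a, the gene behind most resurgent sodium current, had CPM of 397, 431, 360.4, 394 and 391 in WT/WT mice and 376, 387, 358, 379 and 419 in 304Q/304Q mice at 12 months, and 494, 467, 451, 419 and 408 for WT/WT and 419.9, 419.9, 395, 413 and 426 for 304Q/304Q mice at 2 months. The genotypes overlapped at both ages, with log2 fold changes of -0.11 (95% interval -0.23 to 0.00) and -0.04 (95% interval -0.16 to 0.07). Scn1a, known from interneurons and Purkinje cells, had 0.15 (95% interval -0.04 to 0.34) at 12 months, and 0.24 with an adjusted p of 0.048 without WT/WT mouse 1. Scn9a, at 4.09 ± 1.14 CPM in WT/WT mice of 12 months, had -0.03 (95% interval -0.47 to 0.41). In the summed RPKM of the alpha subunits, Scn2a made up 34.7% ± 1.5 in WT/WT mice and 40.4% ± 1.7 in 304Q/304Q mice at 12 months, and Scn8a 35.8% ± 2.7 and 30.6% ± 1.6.

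Scn4b, which encodes the beta4 subunit known for its part in the resurgent current of Purkinje cells, had the lowest p of all 33 genes at both ages. Its CPM were 115, 126, 115, 116 and 117 in WT/WT mice and 84.5, 88, 78.6, 82.8 and 84 in 304Q/304Q mice at 12 months. At 2 months they were 108, 117, 109, 109 and 108 for WT/WT and 96.7, 99.8, 93.6, 89.4 and 102 for 304Q/304Q mice. The genotypes did not overlap at either age, with 304Q/304Q mice lower, and at 2 months non-overlap was seen in 1.05% of all genes, in that direction in 0.551%. This was a log2 fold change of -0.49 ± 0.05 (adjusted p = 2.39e-07) at 12 months, just short of the limit for a DEG, and -0.20 ± 0.05 (adjusted p = 0.296) at 2 months.

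Of the other sodium channel beta genes, Scn2b had a log2 fold change of -0.14 (95% interval -0.32 to 0.03) at 12 months and Scn3b, at 3.57 ± 1.10 CPM in WT/WT mice of 12 months, -0.02 (95% interval -0.55 to 0.50).

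Among the HCN genes, Hcn2, Hcn3 and Hcn4 did not pass between the genotypes by edgeR's test in the fit reported. In that fit 1 of them, Hcn2, had an unadjusted p under 0.05 at 12 months (0.00698). Hcn2, the most expressed of these per exon length, had CPM of 126, 160.1, 146, 148 and 151 in WT/WT mice and 126, 129.8, 127, 115 and 111 in 304Q/304Q mice at 12 months, and 104, 118, 116, 143 and 153 for WT/WT and 123, 147, 121, 125 and 108 for 304Q/304Q mice at 2 months. At 12 months WT/WT mouse 1 lay among the 304Q/304Q mice and the other 4 lay above them. The log2 fold change was -0.27 ± 0.09 (adjusted p = 0.0535), -0.32 with an adjusted p of 0.0187 without WT/WT mouse 1, and -0.13 with an adjusted p of 0.208 with the GC trend removed. Hcn2 stayed short of the threshold under 9 of 13 other alternatives and in 14 of 20 fits that left out a library. It passed as lower in the rest (adjusted p between 0.00376 and 0.208 over all alternatives). Hcn4, the pacemaker channel of the heart, had -0.40 (95% interval -0.82 to 0.03) at 8.88 ± 1.80 CPM in WT/WT mice, and Hcn3 had 0.17 (95% interval -0.07 to 0.41).

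**Figure D3:**
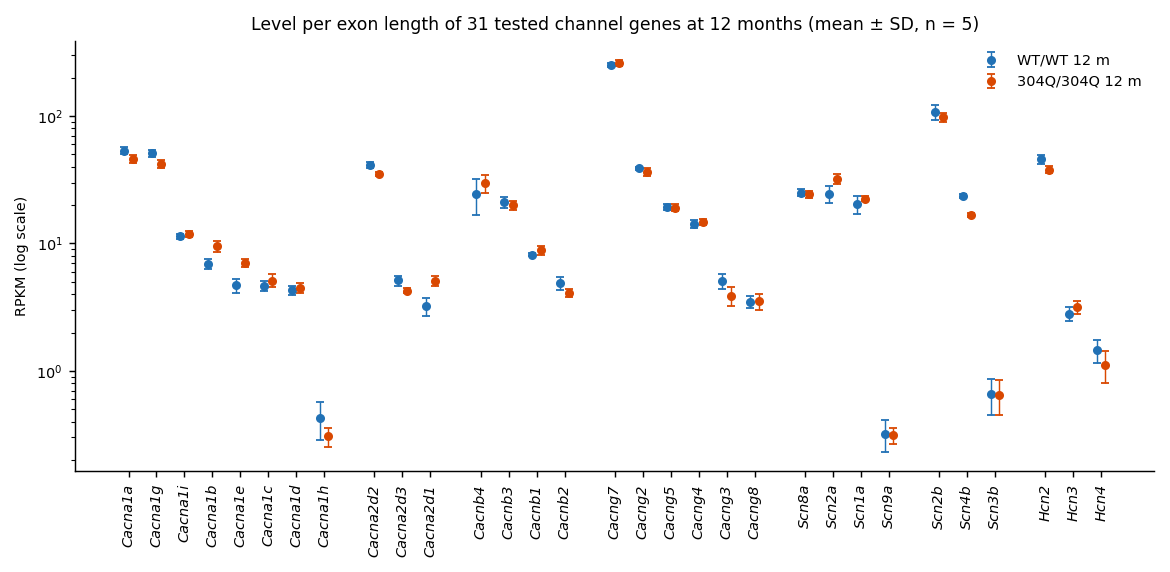
Level per exon length (y axis, RPKM on a log scale) of 31 of the tested channel genes (x axis, by subfamily from high to low) in WT/WT and 304Q/304Q mice of 12 months, with bars for mean ± SD of 5 mice. Cacng7 and Scn2b stand highest, and Cacna1h, Scn9a and Scn3b lowest.

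Levels of different genes were compared per exon length. Among alpha1 genes, Cacna1a had 53.6 ± 3.37 RPKM and Cacna1g 50.9 ± 3.21 RPKM (SD, n = 5) in WT/WT mice of 12 months, and Cacna1i followed with 11.4 ± 0.522. Cacna2d2 led the alpha2delta genes with 41.4 ± 2.08 RPKM and Cacnb4 the beta genes with 24.4 ± 7.76 RPKM, where Cacnb3 with 21 ± 1.97 lay within its spread. In the gamma family Cacng7 had 250.4 ± 9.21 RPKM and Cacng2 38.8 ± 1.07. The levels of Scn8a (25 ± 1.60 RPKM), Scn2a (24.5 ± 3.56) and Scn1a (20.3 ± 3.14) overlapped within their SD, and Scn2b, with 108 ± 13.8 RPKM, stood above Scn4b, with 23.6 ± 0.947 RPKM. Hcn2 had 45.8 ± 3.87 RPKM, above Hcn3 with 2.82 ± 0.345 RPKM.

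Over whole subfamilies, the alpha1 genes summed to 137 ± 6.58 RPKM in WT/WT mice and 127 ± 9.24 RPKM in 304Q/304Q mice of 12 months, and the sodium channel alpha genes to 70.3 ± 7.66 and 79.6 ± 4.16 RPKM. The alpha2delta genes summed to 50.1 ± 1.92 and 44.9 ± 0.861 RPKM. Within the alpha1 sum, Cacna1a took 39.1% ± 1.0 in WT/WT mice and 36.4% ± 0.56 in 304Q/304Q mice, and Cacna1g 37.1% ± 1.4 and 33.2% ± 0.75. Cacna1b took 5.05% ± 0.37 and 7.49% ± 0.36 and Cacna1e 3.43% ± 0.55 and 5.56% ± 0.29. These shares are descriptions of the same counts and were given no test.

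**Figure D4:**
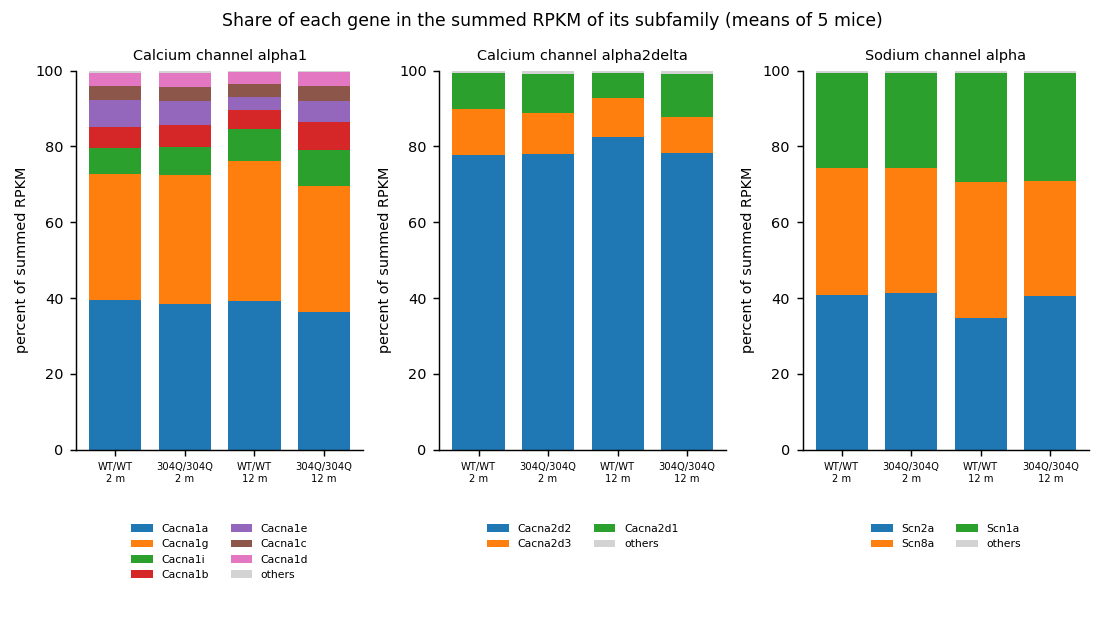
Share of each gene (y axis, percent) in the summed RPKM of its subfamily in the 4 groups (x axis), as means of 5 mice, for alpha1, alpha2delta and sodium channel alpha genes. Cacna2d1 holds 6.45% of its subfamily in WT/WT mice and 11.4% in 304Q/304Q mice of 12 months, and Scn2a holds 34.7% and 40.4% of its own.

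The comparisons of age share their 12-month and 2-month groups with those of genotype, so the values are set side by side and not related to each other. In WT/WT mice, 6 of the 33 genes (18.2%) passed the adjusted p between 12 and 2 months, against 11.5% of all genes. Of these, 1 was higher (all genes 6.08%) and 5 were lower (all genes 5.42%) at 12 months. Cacna1e, Cacna2d1 and Scn2a were DEGs that fell with age (9.09%, against 2.58% of all genes in both directions and 1.18% in that direction). Their log2 fold changes were -1.04 ± 0.10 (adjusted p = 7.74e-07) for Cacna1e, -0.59 ± 0.12 (adjusted p = 0.00281) for Cacna2d1, and -0.50 ± 0.09 (adjusted p = 0.00103) for Scn2a. Cacna2d3 (-0.26 ± 0.07, adjusted p = 0.0124) and Scn8a (-0.18 ± 0.06, adjusted p = 0.0354) were lower too, and the T-type gene Cacna1i was higher (0.25 ± 0.06, adjusted p = 0.0121). Cacna1e, Cacna2d1 and Scn2a stayed past the adjusted p under every alternative and with each library left out, but only Cacna1e stayed a DEG throughout. Cacna2d1 and Scn2a were under the limit of size with surrogate variables in either tool (-0.34 for Cacna2d1 and -0.34 for Scn2a in edgeR), with the GC trend removed (-0.43 and -0.40) and with the length trend removed (-0.47 and -0.38). Scn2a was also under it without WT/WT mouse 1 or 2 of 2 months or mouse 3, 4 or 5 of 12 months. Scn8a was lost without WT/WT mouse 1, 2 or 3 of 2 months and without WT/WT mouse 3, 4 or 5 of 12 months, with adjusted p-values between 0.0641 and 0.122, and under 6 of 13 other alternatives, among which the removal of the length trend gave -0.02 (adjusted p = 0.802). With the length trend removed Cacna2d3 was lost too (-0.19, adjusted p = 0.117). Cacna1i was lost with the GC trend removed (0.11, adjusted p = 0.297) and without the libraries holding choroid plexus transcripts (0.19, adjusted p = 0.178). With the GC trend removed, Cacna1a (-0.16, adjusted p = 0.0405) and Cacng7 (-0.17, adjusted p = 0.021) passed as lower. Without WT/WT mouse 1 of 12 months 11 genes passed, and without WT/WT mouse 4 or 5 of 2 months 10 passed, while the share of all genes rose to 20.9%, 14.7% and 13.8%.

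Cacna1i had CPM of 89.5, 84.3, 95.4, 108 and 94.3 in WT/WT mice of 2 months and 113, 118, 104, 110.4 and 116 in those of 12 months. In 304Q/304Q mice it had 93.5, 112, 105, 98 and 99.6 at 2 months and 119, 115, 108, 121 and 123 at 12 months. The ages overlapped in both genotypes.

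In 304Q/304Q mice, 7 of the 33 (21.2%) passed the adjusted p between 12 and 2 months, against 7.26% of all genes, and none was a DEG, as 2.28% of all genes were. An unadjusted p under 0.05 was met by 17 (51.5%, against 19.1% of all genes). DESeq2, DESeq2 and edgeR with surrogate variables, the fit of these groups alone and the removal of the GC trend each gave 1 DEG, Cacna1h, which was lower (-0.69, adjusted p = 0.0452, with the GC trend removed). Higher at 12 months (3 of 33, all genes 3.08%) were Cacna1b (0.25 ± 0.07, adjusted p = 0.0278), Cacna1i (0.21 ± 0.06, adjusted p = 0.0425) and Hcn3 (0.45 ± 0.12, adjusted p = 0.0177). Lower (4 of 33, all genes 4.18%) were Cacna1a (-0.19 ± 0.05, adjusted p = 0.0199), Cacna2d3 (-0.34 ± 0.07, adjusted p = 0.00144), Cacnb2 (-0.29 ± 0.07, adjusted p = 0.0132) and Scn4b (-0.20 ± 0.05, adjusted p = 0.00969). Of these 7, the call of Cacna2d3 alone was kept under every alternative and leave-out, and Scn4b was lost only without the libraries holding choroid plexus transcripts. Cacna1a was lost without 304Q/304Q mouse 1 or 2 of 2 months or mouse 3 of 12 months, Cacnb2 without 304Q/304Q mouse 2 of 2 months and Hcn3 without 304Q/304Q mouse 3 or 5 of 12 months, with adjusted p-values between 0.0513 and 0.0696. Cacnb2 was also lost with the GC trend removed (-0.31, adjusted p = 0.0596) and Cacna1a with the length trend removed (-0.18, adjusted p = 0.0855), while Cacna1g passed with the GC trend removed (-0.16, adjusted p = 0.048). Cacna1b was lost without 304Q/304Q mouse 3 or 4 of 2 months or mouse 1, 4 or 5 of 12 months (0.058 to 0.0951). Cacna1i was lost in 11 of 20 such fits (0.0503 to 0.131), and was kept without 304Q/304Q mouse 2 of 2 months or mouse 3 of 12 months and without WT/WT mouse 1, 2, 4 or 5 of 2 months or mouse 1, 2 or 3 of 12 months. In the same genotype, Cacna1e had -0.30 ± 0.10 (adjusted p = 0.0698), Cacna2d1 -0.02 ± 0.12 (adjusted p = 0.952) and Scn2a -0.03 ± 0.09 (adjusted p = 0.92). The ages of Cacna1e did not overlap. It stayed short of the threshold under 7 of 13 other alternatives and in 17 of 20 fits that left out a library. In the rest it passed as lower (adjusted p between 1.44e-06 and 0.291 over all alternatives).

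Hcn3 had few counts, with CPM of 10.7, 9.06, 9.01, 9.72 and 9.74 in 304Q/304Q mice of 2 months and 11.2, 12.7, 14.8, 12.7 and 14.7 in those of 12 months, without overlap. In WT/WT mice it had 8.76, 11.8, 11.9, 12.7 and 10.7 at 2 months and 9.87, 10.7, 12.9, 13.3 and 11.9 at 12 months, which overlapped. Its exons overlap those of Pklr on the other strand over 17.1% of their length.

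Whether the genotype difference itself differed between the ages was tested with the interaction term. It passed the adjusted p in 4 of 33 genes (12.1%), against 1.95% of all genes, with 3 above 0 (all genes 0.642%) and 1 below 0 (all genes 1.31%), and Cacna1e alone had a size of at least 0.5 (3.03%, against 0.938% of all genes). The interaction was 0.73 ± 0.14 (adjusted p = 0.00536) for Cacna1e, 0.42 ± 0.10 (adjusted p = 0.0285) for Cacna1b, 0.48 ± 0.13 (adjusted p = 0.0494) for Scn2a and -0.30 ± 0.07 (adjusted p = 0.0203) for Scn4b. That of Cacna1e was kept under every alternative and leave-out. In contrast, Scn2a was lost in 15 of 20 fits that left out a library (adjusted p between 0.00291 and 0.11 over all alternatives), and was kept without WT/WT mouse 4 or 5 or 304Q/304Q mouse 5 of 2 months, or without WT/WT mouse 1 or 304Q/304Q mouse 3 of 12 months. Cacna1b was lost in 8 of 20 (0.00434 to 0.0671 over all alternatives), namely the 7 given below for the count and the fit without 304Q/304Q mouse 5 of 12 months, and with the length trend removed (0.34, adjusted p = 0.0504). Scn4b was kept with each library left out and lost with the GC trend removed (-0.21, adjusted p = 0.164), without a filter on low counts and without the libraries holding choroid plexus transcripts. Cacna2d1, with 0.57 ± 0.17 (adjusted p = 0.0749), did not pass, but did under 4 of 12 other alternatives, namely DESeq2, no filter on low counts, thinned counts and the removal of the GC trend (0.40, adjusted p = 0.0459). Without WT/WT mouse 1 of 12 months, 7 genes passed the interaction (all genes 4.59%), of which 4 had a size of at least 0.5 (all genes 2.18%), and Cacna2d1 (0.66, adjusted p = 0.0161) was among them. The count was 2 without WT/WT mouse 3 of 2 months or mouse 3 or 4 of 12 months, and without 304Q/304Q mouse 3 or 4 of 2 months or mouse 1 or 4 of 12 months.

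Of the 11 genes past the adjusted p between the genotypes at 12 months, Cacna1b, Cacna1e, Cacna2d1, Scn2a and Scn4b stayed past it under every alternative and with each library left out. Neither of the DEGs stayed above the limit of size throughout. Cacna1e had 0.496 with the length trend removed, and Cacna2d1 went down to 0.44 among the alternatives. In GRCm38 these are the genes Cacna1b (ENSMUSG00000004113, chr2:24603887-24763152, minus strand), Cacna1e (ENSMUSG00000004110, chr1:154390731-154884501, minus strand), Cacna2d1 (ENSMUSG00000040118, chr5:15934691-16374511, plus strand), Scn2a (ENSMUSG00000075318, chr2:65620771-65767447, plus strand) and Scn4b (ENSMUSG00000046480, chr9:45138395-45154152, plus strand). The other 6 were lost when the 6 libraries with choroid plexus transcripts were left out, which leaves 2 WT/WT and 3 304Q/304Q mice of 12 months and in which 5.36% of all genes passed. In that fit, chosen after the data were seen, the log2 fold changes were 0.65 for Cacna1b, 0.72 for Cacna1e, 0.76 for Cacna2d1, 0.58 for Scn2a and -0.45 for Scn4b, and 4 of these were DEGs. The 6 lost genes kept their direction, at -0.15 for Cacna1a, -0.23 for Cacna1g, -0.20 for Cacna2d2, -0.30 for Cacna2d3, -0.15 for Cacnb2 and -0.35 for Cacng3. Without WT/WT mouse 1 of 12 months, 13 genes passed (all genes 17.1%) and 4 were DEGs (all genes 4.45%), with Cacnb4 and Scn4b added to Cacna1e and Cacna2d1.

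The level of several channel genes followed the GC slope of the library within groups. Over the 20 libraries, each taken as its deviation from its group mean, the correlation with the slope was -0.961 for Cacnb4, -0.948 for Scn1a, -0.884 for Cacna2d1, -0.837 for Cacna1e and -0.822 for Scn2a, and 0.784 for Hcn2. It was -0.16 for Cacna1b and -0.0836 for Scn4b. Of the 33 genes, 8 (24.2%) lay below -0.5, against 18.7% of all genes tested, and 6 (18.2%) lay over 0.5, against 17.9%. Such correlations were thus nearly as frequent among all genes. The slope was computed from the same libraries and these are descriptions. WT/WT mouse 1 of 12 months, whose slope lay beside those of the 304Q/304Q mice, had 142 CPM of Cacna1e and 50 CPM of Cacna2d1, above the other WT/WT mice and below the lowest 304Q/304Q mice with 163 and 55.9 CPM.

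**Figure D5:**
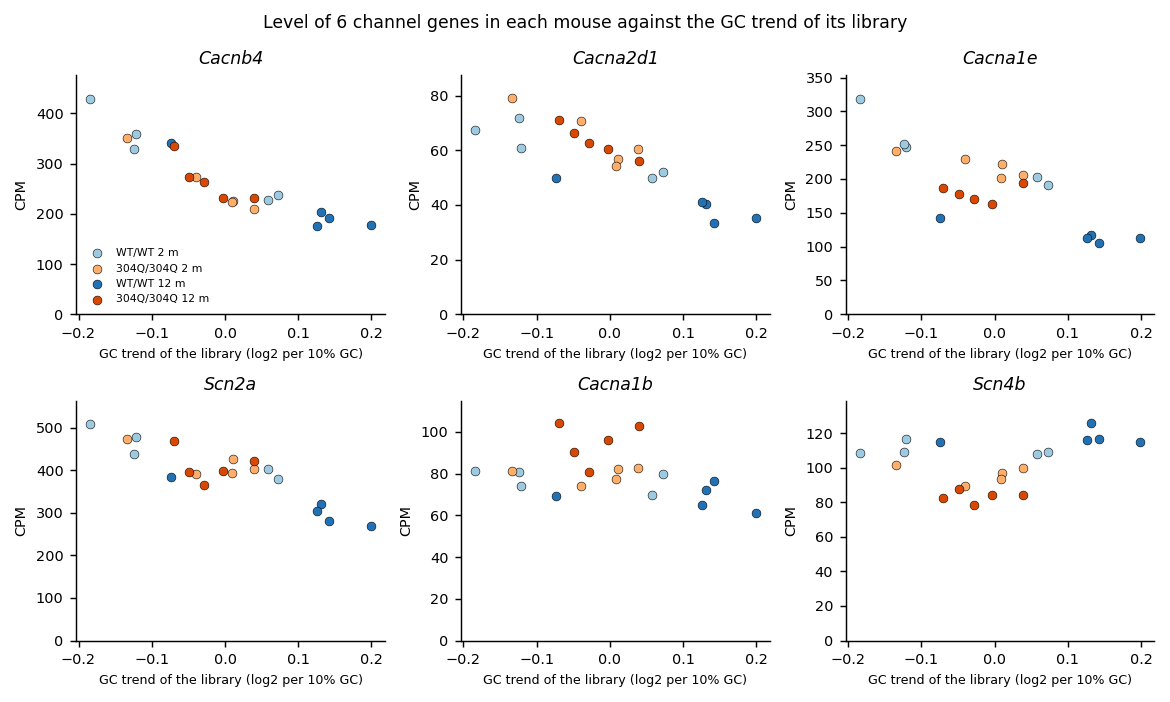
CPM (y axis, starting at 0) of 6 channel genes in each of the 20 mice against the GC trend of the library (x axis, log2 units per 10% GC), colored by group. Cacnb4 falls with the trend across all groups, Cacna2d1, Cacna1e and Scn2a fall with it within groups while the 12-month WT/WT mice stay low, and in Cacna1b and Scn4b the 12-month genotypes do not overlap.

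Markers of several cell types moved beside these genes at 12 months, when 5.23% of all genes passed as higher and 7.3% as lower. Of 12 Purkinje cell markers, 10 were past the adjusted p and lower in 304Q/304Q mice, with a median log2 fold change of -0.395, and their summed level ran from 8000 to 8790 CPM in WT/WT and from 6280 to 6870 CPM in 304Q/304Q mice without overlap. None of 12 granule cell markers passed edgeR's test, with 3 at an unadjusted p under 0.05 (6550 to 7080 and 6470 to 7240 CPM). Of 10 interneuron markers 3 were lower (2030 to 2210 and 1850 to 1980 CPM), of 12 oligodendrocyte markers 5 were lower (5330 to 6060 and 3510 to 4850 CPM), and of 10 astrocyte markers 3 were lower (3940 to 4140 and 3690 to 3830 CPM). Of 5 blood markers 4 were lower (116 to 246 and 96.2 to 112 CPM), of 9 tested microglia markers 1 was higher, and of 4 tested markers of deep nuclei and unipolar brush cells 1 was lower. No oligodendrocyte precursor or endothelial marker passed (8 tested of each), nor did any of 5 tested choroid plexus markers. The 2 tested skeletal muscle markers were higher, and the list summed to 278 CPM in 1 of the 304Q/304Q mice. At 2 months none of the Purkinje cell markers passed edgeR's test or had an unadjusted p under 0.05, with sums of 8270 to 9230 and 7800 to 8500 CPM. Of 12 oligodendrocyte markers 1 passed as lower at that age, against 0.0494% of all genes in both directions. An unadjusted p under 0.05 was met by 7 of them and by 3 of the granule cell markers, against 5.55% of all genes. No tested marker of the other cell types passed at 2 months. The part of these shifts in the channel genes was not tested.

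Partners of the channels were counted in lists of their own. Of all genes tested, 12.5% passed the adjusted p between the genotypes at 12 months (5.23% higher, 7.3% lower), and 3.09% were DEGs. The median log2 fold changes of the lists, in the order given here, were 0.0487, -0.0164, 0.0584 and -0.0847, beside -0.00386 over all genes. Of 11 sodium channel partners 1 passed at 12 months, Fgf11 (-0.38 ± 0.06, adjusted p = 0.000122), a protein of the family that binds sodium channel tails. Of 14 tested calcium channel partners, Rims2 and Syt2 of the release machinery were higher, and Stac2, Bsn and Cabp1 lower. Stac2, of a family that keeps calcium channels at the membrane, was the DEG among them (-0.56 ± 0.07, adjusted p = 5.85e-06). Partners that are not DEGs are named here after their values were seen. Of 5 HCN and NALCN partners, Nalcn, a sodium leak channel, was higher (0.42 ± 0.06, adjusted p = 6.87e-05) and Pex5l, which anchors HCN channels, lower (-0.37 ± 0.09, adjusted p = 0.00488). At 2 months 1 of the 5 partners in this list passed as lower, against 0.0494% of all genes in both directions. Of 15 genes of calcium stores and clearance 3 were higher and 5 lower, with the DEGs Calb2 (0.53 ± 0.06, adjusted p = 3.36e-06), a calcium buffer that was also higher at 2 months (0.37, adjusted p = 0.0148), and Slc8a3 (0.65 ± 0.08, adjusted p = 4.53e-06), a sodium-calcium exchanger. Among the 5 lower were the buffers Pvalb (-0.45 ± 0.06, adjusted p = 4.26e-06) and Calb1 (-0.26 ± 0.05, adjusted p = 0.00166) and the receptor for inositol trisphosphate Itpr1 (-0.28 ± 0.07, adjusted p = 0.00548), and the latter pair are also in the Purkinje cell list.

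The 10 genes with a mean under 50 counts were taken as not measured, and 9 of them are given here. Cacna2d4 came closest, with 29 to 94 counts per library and a mean of 48.35. Cacna1s had 5 to 37 counts, Scn3a 7 to 26, Cacna1f 0 to 18, Scn7a 0 to 14 and Scn11a 0 to 14. Cacng6 had 0 to 5 and Cacng1 0 to 4. Scn4a, the sodium channel of skeletal muscle, had 26 counts in 304Q/304Q mouse 5 of 12 months, the library with 278 CPM of muscle markers, and 0 to 5 elsewhere, and Cacna1s, the muscle L-type channel, had 37 counts there, beside 33 in 2 libraries of 2 months.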

How the data were processed

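RNA of 20 cerebella was sequenced as polyA libraries (TruSeq Stranded, paired-end). STAR alignments to GRCm38 (Ensembl v91) were made by the authors, who deposited raw counts per gene made with Rsubread; the strand setting of the counting is not given in the sources used here, and reads from genes overlapping on opposite strands, as for 11 of the 43 genes, may not be told apart. Counts were analysed with edgeR 4.0.16 (TMM scaling, quasi-likelihood test, 1 model of the 4 groups, Benjamini-Hochberg adjustment over the 12153 genes that averaged 50 counts or more) in R 4.3.3. Genes past an adjusted p of 0.05 and a log2 fold change of 0.5 in size were called DEGs. CPM used TMM-scaled totals, and RPKM, used only for levels between genes, divided CPM by the summed exon length in kilobases (GENCODE M21). Fold changes are given ± SE.

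Alternatives were DESeq2 1.42.0, 3 surrogate variables (sva 3.50.0) in DESeq2 and edgeR, other scaling and filters, only the groups compared, a replicate block, GC or length trends removed, thinned counts and each library left out; leaving out libraries with choroid plexus transcripts was chosen after seeing the data. The scripts were tested on simulated data. The labels number the mice, but these numbers did not pair them. The set's genes are named, other than 3 that count among the 43 but are not reported here, with all mice for genes past the adjusted p in any comparison and for the leading gene of each subfamily, and partners where they were DEGs at 12 months or, outside this rule, after their values were seen. The genes and lists were chosen with earlier results of these data known. All 40 pairs of replicates differed by more than sampling noise. Tested genes held 99.31% of counts.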

Additional observations from a re-analysis of the deposited data

Results flagged for a closer look

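In groups of 5 mice, 1 mouse stood apart from the other 4 by Dixon's criterion in 6 of 124 groups, where chance gives about 5%. In WT/WT mouse 1 of 12 months, Cacnb4 was 341 CPM, above the other WT/WT mice with at most 204 CPM. Scn4b was 117 CPM in WT/WT mouse 2 of 2 months (others 108 to 109 CPM) and 126 CPM in WT/WT mouse 2 of 12 months (others 115 to 117 CPM). Scn3b, a gene of few counts, was 5.5 CPM in WT/WT mouse 4 of 12 months and 1.61 CPM in 304Q/304Q mouse 4 of 12 months, and Cacng8 was 10.4 CPM in 304Q/304Q mouse 2 of 12 months. The genotype difference differed between 12 and 2 months in 4 genes by the interaction term, with a log2 difference of 0.42 for Cacna1b, 0.733 for Cacna1e, 0.477 for Scn2a and -0.3 for Scn4b. No cause was tested for any of these.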

How the results depend on the processing

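No log2 fold change past the adjusted p in the fit reported turned its sign, and 10 of 28 such calls were kept under every alternative. At 2 months the number past the adjusted p was 1 with DESeq2 and surrogate variables. At 12 months the DEGs numbered 1 (Cacna2d1) with the length trend removed and 4 without the choroid plexus libraries, where 5 genes passed the adjusted p. With age in WT/WT mice the DEGs numbered 1 with surrogate variables in DESeq2 or edgeR and with the GC or length trend removed, and 5 without a filter. With age in 304Q/304Q mice they numbered 1 with DESeq2, with surrogate variables in either tool, with only the groups compared and with the GC trend removed, while 15 and 14 genes passed the adjusted p with surrogate variables in DESeq2 and edgeR, and 3 without the choroid plexus libraries. The interaction gave 2 DEGs with DESeq2, with DESeq2 and surrogate variables, without a filter and with thinned counts, and 3 without the choroid plexus libraries, while 7 genes passed the adjusted p with DESeq2 and surrogate variables. The cause was not tested.

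With each library left out, DEGs ran from 0 to 0 between genotypes at 2 months, 2 to 4 at 12 months, 2 to 4 with age in WT/WT, 0 to 1 with age in 304Q/304Q and 1 to 4 for the interaction, and genes past the adjusted p from 0 to 0, 9 to 13, 5 to 11, 5 to 8 and 2 to 7. The single DEG with age in 304Q/304Q mice appeared without 304Q/304Q mouse 1 of 2 or of 12 months and without WT/WT mouse 2 or 5 of 12 months. The interaction gave 4 DEGs without WT/WT mouse 1 of 12 months, 3 without WT/WT mouse 4 or 5 or 304Q/304Q mouse 5 of 2 months, and 2 without 304Q/304Q mouse 3 of 12 months.

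With the replicate number as a block, DEGs numbered 0, 2, 3, 0 and 1 in the same order and genes past the adjusted p 0, 10, 7, 6 and 4. Of 30 pairs of mice with the same number, 6 had deviations correlated over 0.1 (-0.333 to 0.562). The same held for 37 of 120 pairs with different numbers (-0.563 to 0.439). In all, 4 of 20 libraries correlated best with their own number, so the mice were taken to share only a number. Genes under 50 counts on average were out of reach at this depth.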
